A study of Caenorhabditis elegans with 2 samples.

Results

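The genes described here encode translation elongation factors of the worm: eef-1A.1, eef-1A.2, eef-1G, eef-2, iff-1 and iff-2. They were taken by name from the Ensembl annotation, where they are 6 of 19973 protein-coding genes, and were chosen with earlier results of these data known. The set is not complete: eef-1B.1 and eef-1B.2, for example, are not in it and are given below for context. For each of them, peak summits were looked for from 500 bp upstream to 100 bp downstream of any annotated transcript 5′ end, called the promoter window below, and the nearest record within 2000 bp was noted. The peaks came from chromatin immunoprecipitation with sequencing (ChIP-seq) of the zinc finger protein Y67H2A.10 in Caenorhabditis elegans. The worms were of strain RW12295, in which CRISPR insertion placed TY1, EGFP and 3xFLAG tags on the Y67H2A.10 gene of chromosome IV (allele st12295). Whole young adults were taken at 63 hours, after synchronisation as starved L1 larvae, and sonicated chromatin was precipitated with an anti-GFP antibody. There were 2 biological replicates of this single group, so no condition was compared with another, and untagged worms were not analysed here. Whole animals were used, so a site held in a few cells and a site held weakly in many cannot be told apart.

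In elongation, eEF1A brings aminoacyl-tRNA to the ribosome, the eEF1B complex recharges eEF1A with GTP, and eEF2 moves the ribosome along the message. eIF5A, a small protein that carries the modified amino acid hypusine, helps the ribosome through slow stretches and at stop codons. In the worm, eEF1A is encoded by the pair eef-1A.1 and eef-1A.2, eIF5A by the pair iff-1 and iff-2, the gamma subunit of eEF1B by eef-1G, and eEF2 by eef-2. Worm genetics has tied iff-1 to the germline and iff-2 to the soma. The question put to the data was where the tagged protein was found at these genes, and whether the members of each pair differed.

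A summit of the conservative list, the 709 records (666 regions once overlapping records were merged) whose ranks recurred between the replicates, lay in the promoter window of 5 of the 6 genes, all but iff-1. Over all protein-coding genes the same rule called 462, or 2.31%. Since the 6 genes were chosen with earlier results known, their count is a description. Both members of the eEF1A pair carried a region, and only iff-2 of the eIF5A pair did. The reference sequences below (RefSeq, WBcel235, which is the ce11 build of the peak lists) show where the tagged protein was found and, for iff-1, the promoter where no region was kept. For 4 of the 5 genes with a region (eef-2 is not shown) they reach 60 bp to either side of the summit and stop at the gene's first 5′ end. For iff-1 they are the 200 bp before the first 5′ end. Each is written on the strand of the gene, and capitals mark ACGCGC, GTCTCGCA or its reverse complement, and TATAAA.
iff-2, II:8561379-8561499, minus strand: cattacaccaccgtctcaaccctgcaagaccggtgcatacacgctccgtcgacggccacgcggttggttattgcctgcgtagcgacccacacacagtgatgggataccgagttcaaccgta
iff-1, III:9747194-9747393, minus strand: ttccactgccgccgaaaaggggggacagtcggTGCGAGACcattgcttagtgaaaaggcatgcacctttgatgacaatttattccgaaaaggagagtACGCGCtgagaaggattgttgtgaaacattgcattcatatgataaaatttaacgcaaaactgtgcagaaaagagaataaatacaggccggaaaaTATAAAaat
eef-1A.2, X:7823231-7823351, plus strand: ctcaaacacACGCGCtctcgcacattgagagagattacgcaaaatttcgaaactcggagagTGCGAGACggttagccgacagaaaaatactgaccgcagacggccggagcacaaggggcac
eef-1A.1, III:6972072-6972192, minus strand: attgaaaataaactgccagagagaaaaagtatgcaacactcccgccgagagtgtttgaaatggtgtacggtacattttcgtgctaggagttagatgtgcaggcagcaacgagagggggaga
eef-1G, V:10965657-10965718, plus strand: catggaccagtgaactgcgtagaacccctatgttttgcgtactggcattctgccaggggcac

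ACGCGC and GTCTCGCA had been picked out on these same peaks earlier, so their presence is a description and not independent evidence. TATAAA is a textbook core promoter word. All 3 were searched on both strands, and none of them overlaps another in the sequences above. Within 50 bp of the summit, eef-1A.2 alone of the 5 genes with a region held any of them: GTCTCGCA on the opposite strand, starting 1 bp past the summit. Within 100 bp, eef-1A.2 also held ACGCGC, starting 51 bp before the summit, and eef-1A.1 held TATAAA, starting 78 bp before its summit. Within 50 bp of the summits of all 666 regions, 17.3% held ACGCGC, 3.90% held GTCTCGCA and 5.26% held TATAAA. Within 100 bp the shares were 23.0%, 5.11% and 12.3%. The promoter of iff-1 held all 3 words although no region was kept there: GTCTCGCA on the opposite strand at 168 bp, ACGCGC at 103 bp and TATAAA at 9 bp before the first 5′ end. In the same window, 250 bp before to 50 bp after the first 5′ end, eef-1A.2 held ACGCGC once, while eef-1G and iff-2 held none of the words. TATAAA was held by eef-1A.1 at 2 places, on the opposite strand at 231 and 116 bp before the first 5′ end. It was held by eef-2 at 1 place, 191 bp before that gene's first 5′ end. Of these 300 bp promoters of all protein-coding genes, 5.92% held ACGCGC, 0.796% held GTCTCGCA and 37.9% held TATAAA.

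The base composition at the summits also differed between the genes. GC content within 50 bp of the summit was 61.4% at iff-2 and 53.5% at eef-1A.2. It was 47.5% at eef-1A.1, 46.5% at eef-2 and 45.5% at eef-1G. The median over the 666 regions was 49.5%, with quartiles at 44.6% and 54.5%, so iff-2 lay above the upper quartile and the other 4 within the quartiles. In the 300 bp promoters the order was another: 45.0% at iff-2, 39.7% at eef-1A.2, 38.3% at eef-1G, 37.3% at iff-1, 34.0% at eef-2 and 29.7% at eef-1A.1, where the median of all promoters was 34.3%. None of the 5 summits lay in soft-masked repeat sequence, and all 5 lay between annotated genes.

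Peak strength is given by the deposited signal, a peak height in the authors' units. No source used here names its scale, so values are set against each other only within a list. In the conservative list it was taken on the pooled reads of both replicates. Recurrence is given by the irreproducible discovery rate (IDR), an estimate of how many of the peaks ranked that high or higher fail to recur, with a threshold of 0.01. Only the IDR of the conservative comparison is between the replicates. The lists of 1 replicate and the pooled list were compared with themselves, so their IDR does not measure recurrence between replicates. No read counts were given with the peaks, and the depth behind each value is unknown. With 2 replicates of 1 group no test between genes was run, and the spread between the replicates is given in its place.

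The strongest region belonged to iff-2 (WBGene00002065, II:8559375-8561367, minus strand), which encodes an eIF5A. It lay at II:8561377-8561483, with the summit 72 bp upstream of the first 5′ end, a signal of 263 and rank 38 of the 666 regions. The record was 107 bp wide, where the usual record was 296 bp wide. Narrow records were 59 of 709, or 8.32%, and had a median signal of 297, against 99.9 for records of the usual width. In its own list of candidate peaks, replicate 1 had a signal of 108 at iff-2 (percentile 99.7, IDR 9.95e-05), with the summit 51 bp upstream. Replicate 2 had a signal of 150 (percentile 99.9, IDR 1.00e-05), with the summit 65 bp upstream. The percentiles differed by 0.194 points between the replicates, and iff-2 was kept in the thresholded list of each. No other gene had a 5′ end within 500 bp of the summit.

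Its paralogue iff-1 (WBGene00002064, III:9745862-9747193, minus strand) had no record in any thresholded list within 2000 bp. The nearest one, in the conservative list, lay 18440 bp away and had a signal of 501. Weak candidate peaks were listed, at a shared place in some lists and elsewhere in others. Replicate 1 had a signal of 24.3 (percentile 62.7, IDR 0.962) 296 bp inside the gene from its first 5′ end, at III:9746762-9747031. Replicate 2 had a signal of 28.4 (percentile 87.9, IDR 0.783) 309 bp upstream of that end, at III:9747370-9747633. These summits were 605 bp apart, so the replicates did not list a shared position. The summit of replicate 2 lay 30 bp inside cdk-1, the divergent neighbour that encodes the main mitotic kinase, named here after its values were seen. In the ranked list of the conservative comparison, records with signals of 24.6 (percentile 21.8) and 24.4 (percentile 21.6), both at an IDR of 0.873, fell near internal 5′ ends of iff-1, 798 and 1009 bp inside the gene. All 6 genes had a record in the promoter window of that ranked list, as did 3953 protein-coding genes, or 19.8%, which is the share against which the listing of iff-1 is to be read.

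Set against each other within a list, iff-2 had 4.43 times the signal of iff-1 in replicate 1 and 5.29 times in replicate 2, log2 ratios of 2.15 and 2.40. In the conservative comparison's ranked list the ratio was 10.68-fold (log2 3.42), and in the pooled ranked list, where the iff-1 record lay 303 bp upstream of the first 5′ end and had a signal of 44.4, it was 5.92-fold (log2 2.56). The iff-1 records of replicate 2 and of the pooled list lie at the same place, 309 and 303 bp upstream of the first 5′ end, while those of replicate 1 and of the conservative comparison lie elsewhere. The ratios share a direction but do not all measure 1 iff-1 site. The encoded proteins have 161 residues for IFF-2 and 195 for IFF-1, identical at 135 of 161 aligned residues (83.9%). Their coding sequences were identical at 78.7% of aligned bases, with a longest shared run of 20 bp. Over the 500 bp upstream of the genes the longest shared run was 9 bp.

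**Figure D1:**
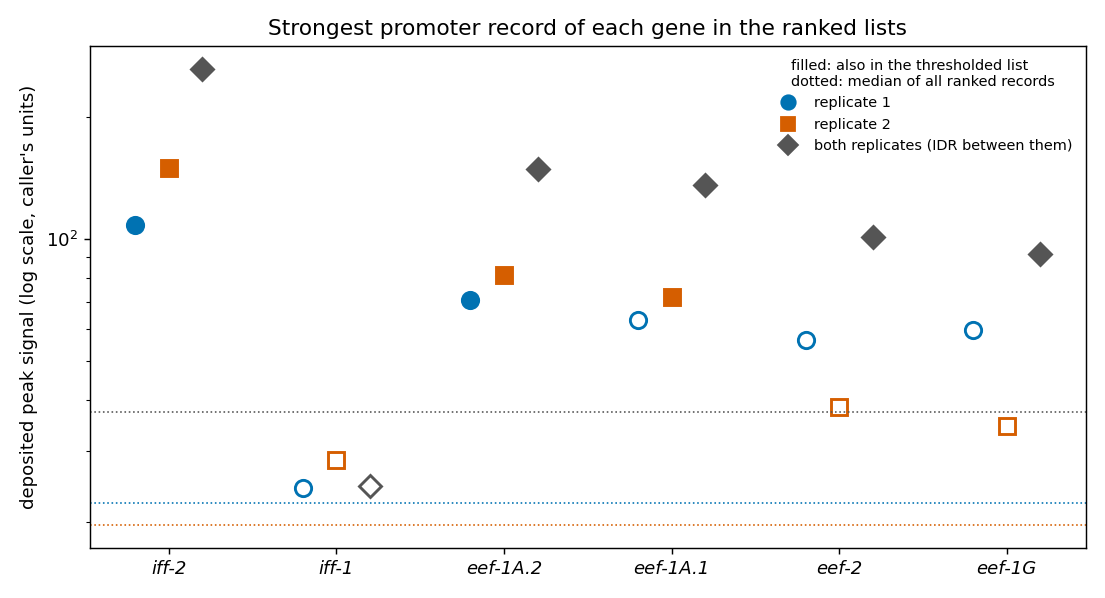
Deposited peak signal (log axis, in the peak caller's units) of the strongest promoter record of each gene in the ranked lists of replicate 1 (circles), replicate 2 (squares) and the comparison of both (diamonds), filled where the record was also in the thresholded list, with the median of all ranked records dotted. Signals are compared within a symbol only: iff-2 had 108, 150 and 263, and iff-1 had 24.3, 28.4 and 24.6, open in all 3 lists.

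The eEF1A genes each carried a region, far upstream of the gene. At eef-1A.2 (WBGene00001169, X:7823654-7825769, plus strand) it lay at X:7823143-7823438, with the summit 363 bp upstream of the 5′ end, a signal of 149 and rank 143 of 666. At eef-1A.1 (WBGene00001168, III:6970026-6971712, minus strand) it lay at III:6971984-6972279, with the summit 420 bp upstream, a signal of 136 and rank 184. Of the 462 genes with a region, 84 (18.2%) had it 350 bp or more upstream of the nearest 5′ end, and the median was 207 bp upstream.

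At eef-1A.2, replicate 1 had a signal of 70.7 (percentile 99.2, IDR 0.00143) with the summit 334 bp upstream, and replicate 2 had 81.4 (percentile 99.5, IDR 3.02e-05) with the summit 365 bp upstream. Both passed the threshold of their own list. At eef-1A.1, replicate 1 had a signal of 63.2 (percentile 98.9, IDR 0.198) at 420 bp, and replicate 2 had 71.7 (percentile 99.4, IDR 5.48e-04) at 427 bp. Replicate 1 therefore kept eef-1A.2 and not eef-1A.1, although both stood at percentile 98.9 or above there. The signal of eef-1A.2 was 1.12 times that of eef-1A.1 in replicate 1, 1.13 times in replicate 2 and 1.10 times in the conservative list, log2 ratios of 0.16, 0.18 and 0.13. The higher gene was the same in each list, and the size of the difference was small beside the 2.87-fold span from the strongest to the weakest of the 5 regions.

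The surroundings of the eEF1A summits differed. The summit at eef-1A.1 was closer to another coding gene than to eef-1A.1 itself: it lay 121 bp upstream of the divergent gene rfc-4, which encodes a subunit of the clamp loader of DNA replication. It was also 47 bp upstream of the nearest annotated end of the microRNA gene cel-mir-5549. The summit at eef-1A.2 had no other coding 5′ end within 500 bp, but lay 234 bp downstream of the 5′ end of a non-coding RNA gene on the opposite strand, R03G5.8, past the end of that short gene. The EEF-1A.2 and EEF-1A.1 proteins are identical at all 463 residues, and their coding sequences at 1305 of 1389 bases (94.0%), with a longest shared run of 53 bp. The 500 bp upstream of the genes shared no run longer than 11 bp, so the sequence at the summits differs between the genes. Peaks in the near-identical coding sequence remain uncertain, since whether reads were placed in the wrong gene was not tested.

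**Figure D2:**
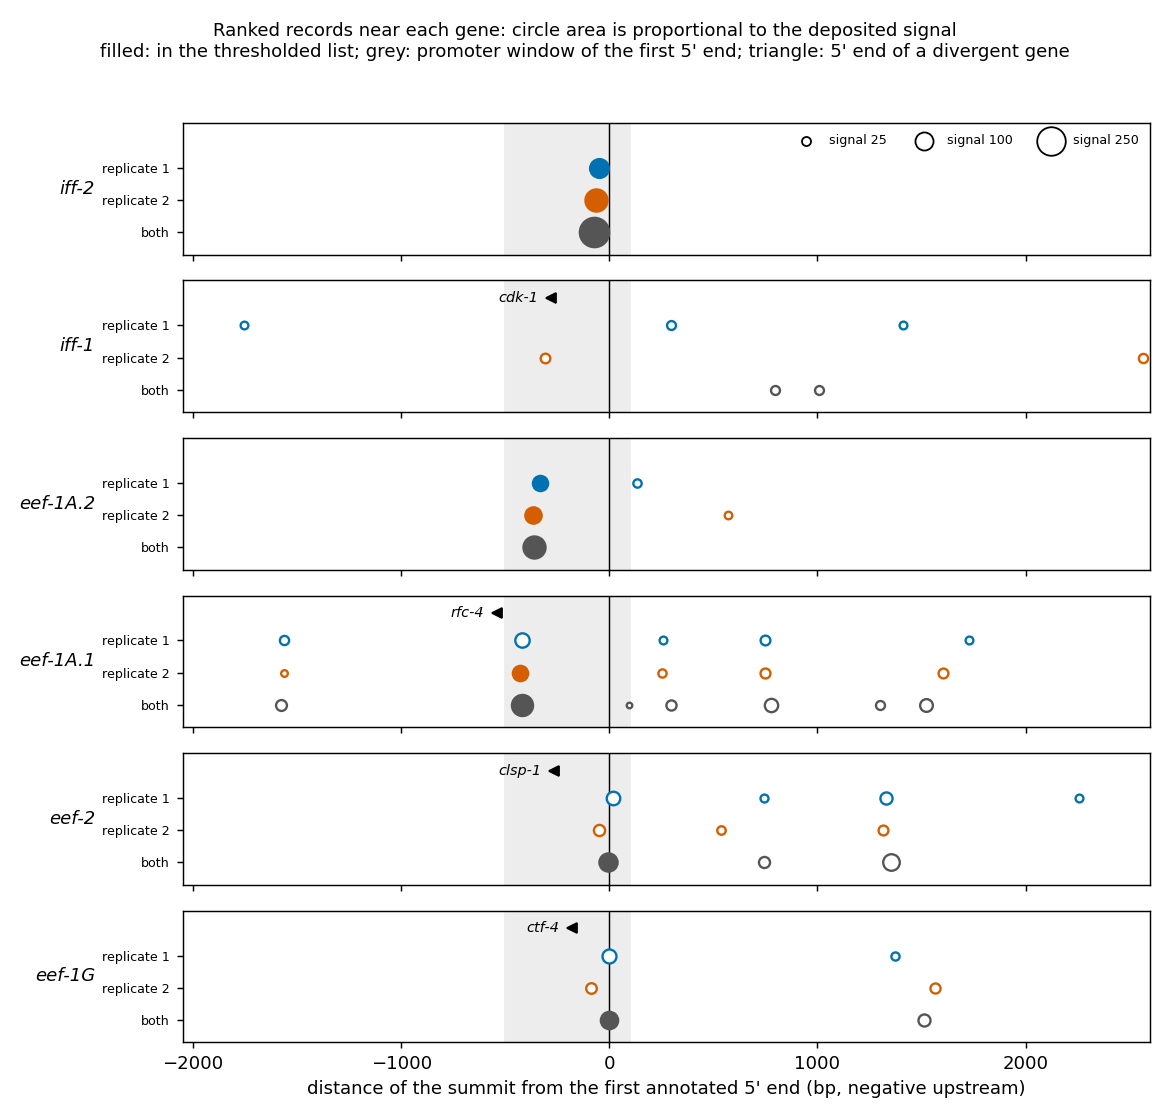
Position of every ranked record near each gene, as the distance of its summit from the gene's first annotated 5′ end (bp, negative upstream), in replicate 1, replicate 2 and the comparison of both; circle area is proportional to signal, filled circles were kept in the thresholded list, the grey band is the promoter window of the first 5′ end and triangles mark 5′ ends of divergent genes. The summits of iff-2 (72 bp), eef-2 (5 bp) and eef-1G (2 bp) lie next to the 5′ end, those of eef-1A.2 (363 bp) and eef-1A.1 (420 bp) far upstream, and the iff-1 records of the replicates and of the comparison of both do not line up. The divergent gene upstream of iff-2, F54C9.14, is not marked.

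The single-copy genes had the weakest of the 5 regions, and both summits of the conservative list lay within 5 bp of the annotated start. At eef-2 (WBGene00001167, I:9163531-9166952, plus strand), which encodes the translocase eEF2, the region lay at I:9163378-9163673, with the summit 5 bp upstream of the first 5′ end, a signal of 101 and rank 373. At eef-1G (WBGene00008920, V:10965719-10967922, plus strand), which encodes the gamma subunit of the exchange complex, it lay at V:10965569-10965864, with the summit 2 bp upstream, a signal of 91.6 and rank 485. Of the 462 genes with a region, 12 (2.60%) had it within 10 bp of a 5′ end, these genes among them. The replicate summits were spread more widely, from 48 bp upstream to 19 bp downstream at eef-2 and from 88 to 1 bp upstream at eef-1G.

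Neither eef-2 nor eef-1G was kept in the list of either replicate. For eef-2, replicate 1 had a signal of 56.2 (percentile 98.5, IDR 0.589) with the summit 19 bp downstream of the 5′ end, and replicate 2 had 38.4 (percentile 96.7, IDR 0.0936) with the summit 48 bp upstream. For eef-1G, replicate 1 had 59.7 (percentile 98.7, IDR 0.0139) with the summit 1 bp upstream, and replicate 2 had 34.5 (percentile 95.0, IDR 0.721) with the summit 88 bp upstream. The percentiles of the replicates differed by 3.75 points at eef-1G, 1.83 at eef-2, 0.470 at eef-1A.1 and 0.335 at eef-1A.2. Over the 453 genes with a conservative region and a record in each ranked list, the median difference was 0.577 points and the upper quartile 1.68. In points, eef-1G and eef-2 thus differed by more than 3 in 4 of those genes, and the eEF1A genes and iff-2 by less than most. Percentiles near 100 leave little room for a difference, so fewer points do not show that a strong gene recurred better. The rank of iff-2 was 75 in replicate 1 and 35 in replicate 2.

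The eef-1G region stood nearest the threshold. Its IDR was 0.00533 in the comparison of the replicates, inside 0.01, and 0.0126 in the pooled comparison, outside it. The pooled thresholded list therefore held 4 of the 6 genes, where 2.30% of all protein-coding genes were called. The list of replicate 1 held 2 of the 6, eef-1A.2 and iff-2, beside 1.22% of all genes. The list of replicate 2 held 3 of the 6, those and eef-1A.1, beside 1.51%. Only eef-1A.2 and iff-2 were thus kept in all 4 thresholded lists.

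**Figure D3:**
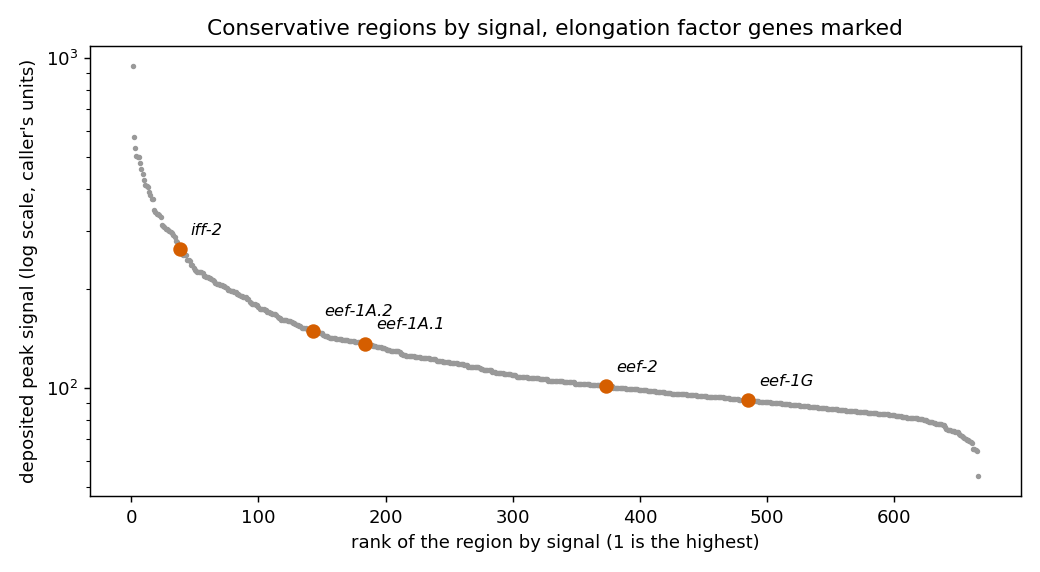
Signal (log axis, in the peak caller's units) of the 666 regions of the conservative list against their rank, with the regions of the elongation factor genes marked. They spread from rank 38 (iff-2, 263) through ranks 143 (eef-1A.2), 184 (eef-1A.1) and 373 (eef-2) to rank 485 (eef-1G, 91.6).

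As at eef-1A.1, the summits at eef-2 and eef-1G lay between the gene and a divergent neighbour. The start of eef-1G is 179 bp from ctf-4, a gene of the replication fork, and the summit lay 178 bp upstream of it. The gap between eef-2 and clsp-1, which encodes a claspin-like checkpoint protein, is 264 bp, and the summit lay 260 bp upstream of clsp-1. In each case the region was also called for the neighbour, so which gene it belongs to cannot be told apart from position alone. The summit at iff-2 also lay between divergent genes, but the gap is wider, with 934 bp to F54C9.14, and the region was not called for that neighbour. The next coding gene upstream of eef-1A.2, sek-1, lies 2617 bp away on the same strand.

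Beyond the promoters, eef-2 had the strongest other record. It lay in the gene body at I:9164734-9165029, 900 bp past the nearest 5′ end, in a coding exon, with a signal of 84.2 at percentile 97.1. Its IDR of 0.0300 was outside the threshold. Both replicates listed it, replicate 1 with 45.2 (percentile 97.3) and replicate 2 with 29.8 (percentile 90.3). A record in a coding exon of eef-1A.1, 778 bp past the 5′ end, had a signal of 54.6 (percentile 87.8, IDR 0.130), with 29.3 in replicate 1 and 30.5 in replicate 2. It lies in the coding sequence, which eef-1A.2 matches at 94.0% of bases over its whole length, and identity at the record itself was not measured. The record is uncertain, since whether reads were placed in the wrong gene was not tested. At eef-1G a coding-exon record 1259 bp past the nearest 5′ end had a signal of 44.6 (percentile 71.3, IDR 0.720). The ranked list of the conservative comparison held 7 records within 2000 bp of eef-1A.1, 3 at eef-2, 2 each at eef-1G and iff-1, and 1 each at eef-1A.2 and iff-2.

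The counts for other genes of the elongation machinery were 0, near the 2.31% of all protein-coding genes that carried a region. None of 5 did: eef-1B.1 and eef-1B.2, the other subunits of the exchange complex, efk-1, the kinase that acts on eEF2, and dhps-1 and dohh-1, the enzymes that make hypusine on eIF5A. None of these had a record in the promoter window in the conservative comparison's ranked list, where 19.8% of all protein-coding genes did. Records outside the promoter window were not looked for at these genes. In the replicate ranked lists the promoter windows held a record with a signal of 18.2 at dohh-1 in replicate 1 and a record with 21.0 at eef-1B.1 in replicate 2. Of all protein-coding genes, 22.8% had such a record in replicate 1 and 27.8% in replicate 2. Of 4 mitochondrial elongation factor genes none had a conservative region. The nearest to one was tufm-2, an EF-Tu gene, with a signal of 71.9, percentile 95.6 and an IDR of 0.0360, which the pooled comparison kept at 0.00963.

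Among like groups, 2 of 11 eIF3 subunit genes (18.2%) carried a region, eif-3.C with a signal of 148 and eif-3.B with 90.8. None of 22 other initiation factor genes did, although ifet-1, an eIF4E-binding protein gene, was kept in the list of each replicate with signals of 92.4 and 73.5. Of 2 termination factor genes, erfa-3 carried a region with a signal of 102. The large ribosomal subunit protein genes had 14 of 50 (28.0%, median signal of the regions 157), and the small subunit had 12 of 32 (37.5%, median 169). The elongation factor genes had 5 of 6 (83.3%, median 136). Of all protein-coding genes 2.31% carried a region, with a median of 113 over those 462. These shares were not tested against each other, since the 6 genes were chosen with results of these peaks in view.

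**Figure D4:**
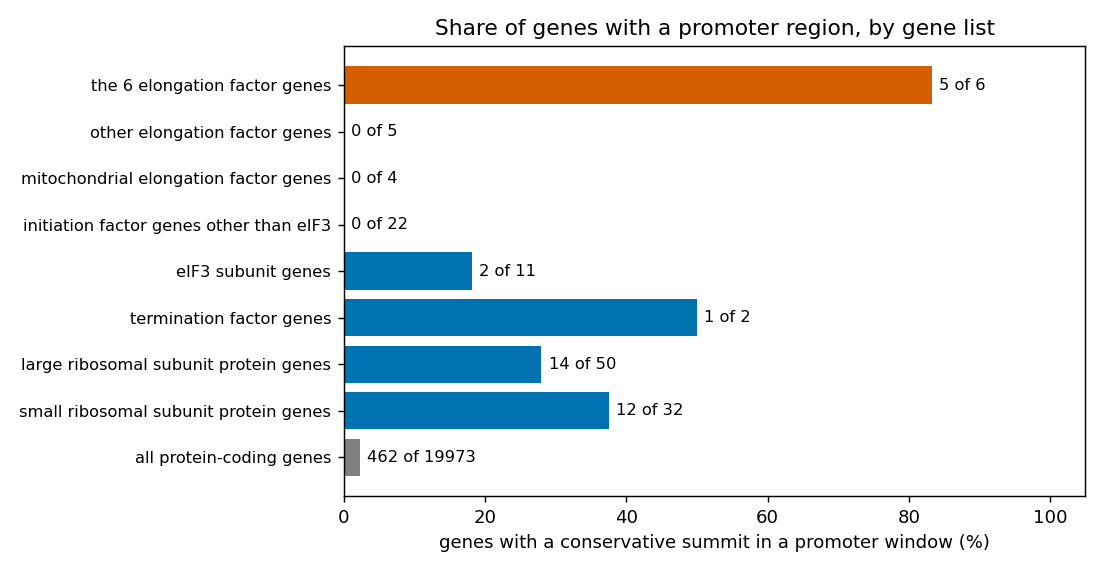
Share of genes (%) with a conservative summit in the promoter window, for the 6 elongation factor genes, 7 other lists of translation genes and all protein-coding genes, with the counts beside the bars. The elongation factor genes stand at 5 of 6, the other elongation factor lists at 0 of 5 and 0 of 4, and all protein-coding genes at 2.31%. The 6 genes were chosen with earlier results of these data known, so the gap between the lists is not a result.

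The pair eef-1A.2 and eef-1A.1 was also set beside other gene pairs whose names differ only in a last digit of 2 or 1 after a point. Of 104 such pairs, 1 had a region at both members, and it was this one. Another 11 had a region at 1 member and 92 at neither. Those with 1 included the chaperone-like ATPase gene cdc-48.1 (signal 408), ant-1.1, a mitochondrial nucleotide carrier gene (164), and the ribosomal protein gene rpl-11.2 (78.9). In the list of replicate 1 no pair had both and 3 had 1 or both, and in that of replicate 2 there were 1 and 8. The eIF5A genes are not numbered in this way and are not in that count. They would fall among the pairs with a region at 1 member. The eef-1A.1 summit lay 121 bp from rfc-4 and 420 bp from eef-1A.1, and was counted for each of them. With each summit given only to the nearest coding 5′ end, eef-1A.1 had none. Over all protein-coding genes 2.31% had a region, and the eEF1A pair was chosen with earlier results of these data known.

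Genes most like each elongation factor gene in strength were found by the distance between their percentiles in 3 ranked lists, those of the conservative comparison and of each replicate, over the 453 genes with a conservative region and a record in all 3. The divergent neighbours rfc-4, ctf-4 and clsp-1 stood at a distance of 0, since they share the record. Next came dad-1, an oligosaccharyltransferase subunit gene, for eef-1A.1 (0.105 points), and the splicing factor genes rsp-1 and rsp-2, which share a region, for eef-1A.2 (0.0680). For eef-1G it was tin-13, a mitochondrial import gene (0.694), and for eef-2 it was dnj-9, a DnaJ-type co-chaperone gene (0.444). For iff-2 they were Y22D7AL.10 (0.0249) and epn-1, an epsin gene (0.0383). This likeness is of rank alone.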

How the data were processed

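ChIP-seq peaks of tagged young adults (1 group, 2 biological replicates) were analysed from 8 deposited peak lists on ce11. Per the deposited text records, the authors called peaks with a control, for each replicate by itself and for both pooled. The aligner and caller, not given in the sources used here, could affect peak heights and summits. As deposited, the signal of a record is the authors' peak height, on an unstated scale. IDR values were computed from the −log10 IDR that the authors deposited in the ranked lists. The text records derive the thresholded lists from 1 further file of unstated content, and 34 of 743 ranked records at an IDR of 0.01 or less are not in the conservative list. Peak lists of 1 replicate, and the pooled list, were compared with themselves. In the ranked lists, 16 columns with the values of the compared peak lists were left out.

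Records that overlapped were merged to a region with the summit and signal of the strongest record. Genes and 5′ ends were those of Ensembl release 115, and sequences those of the RefSeq WBcel235 genome. Percentiles are of signal within a list, and the strongest promoter record stood for a gene. A summit in several windows counted for each gene. Positions are 1-based. Paralogue proteins were translated from the annotated coding sequence and aligned globally. Python 3.11.15, numpy 2.4.6, pandas 2.3.3, biopython 1.88 and matplotlib 3.10.9 were used. Only the search for summits in promoter windows was tested on simulated data, where 200 of 200 genes given a summit were recovered. No p-value was computed. The genes named were the 6 members, the genes of the translation lists with a conservative region (in part as counts), the gene nearest a member's region, and the 2 genes of most similar ranks per member. Other genes, such as cdk-1, ifet-1, tufm-2 and those of the dot-numbered pairs, were chosen after their values were seen. The members, the lists and the named words were chosen with earlier results of these data known. Alternatives were the pooled list, each replicate alone, other IDR thresholds, windows and assignments of summits to genes. Use of the first 5′ end alone was added after seeing the data.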

Additional observations from a re-analysis of the deposited data

How the results depend on the processing

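Summits in the promoter windows of the 6 genes were found at 5 of them under the original settings. The count was 3 at an IDR of 0.001 (eef-1A.2, eef-1A.1 and iff-2), 3 in a window from 250 bp upstream to 50 bp downstream (eef-1G, eef-2 and iff-2), and 2 to 3 with 1 replicate left out. It was 4 where each summit went only to the nearest coding 5′ end, since that of eef-1A.1 went to rfc-4. Of 44 other translation factor genes, 3 were called; 1 was at an IDR of 0.001 and 1 in the narrow window, 5 at an IDR of 0.05, 5 with 1000 bp upstream and 16 with no IDR threshold. Of all protein-coding genes, 462 were called; 272 were at an IDR of 0.001, 285 in the narrow window, 3953 with no IDR threshold, and 243 to 302 with 1 replicate left out. The log2 ratio of eef-1A.2 over eef-1A.1 was 0.16 to 0.18 with 1 replicate left out. That of iff-2 over iff-1 was 2.56 in the pooled list and 2.15 to 2.40 with 1 replicate left out. Dot-numbered pairs with a region at 1 or both members numbered 3 to 8 with 1 replicate left out. ACGCGC or GTCTCGCA was held by 1 gene within 50 bp of the summit and by 2 in the 300 bp promoter. The summit of eef-2 lay at -5 bp from the 5′ end, and at -48 to 19 bp with 1 replicate left out, downstream of the end without replicate 2. In all, 71 values stayed within their spread or 1.5 times their count, 30 moved and 1 changed sign. The cause was not tested. The spread was the standard deviation of the 2 single-replicate values, which were themselves among the values scored. Some settings gave the main value again, such as the percentiles with 1000 bp upstream. The tally is therefore a description and does not measure robustness. In the narrow window the eEF1A genes gave no ratio, and with the first 5′ end alone iff-1 had no record. No paired analysis was possible because there is a single group. Depth is unknown, so it cannot be said which absences it limits.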
